A study of Homo sapiens with 6 samples.

Results

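The human zinc finger genes of chromosome 19 named ZNF and a number form a large family of transcription factors. They are followed here in K562 cells, a human line from a chronic myeloid leukaemia. Members were the protein-coding genes of the normalised count table whose symbol is ZNF, a number and at most 1 further letter, and that lie on chromosome 19 of GRCh38 in GENCODE 29. There were 205 of them among the 19498 genes of the table, which is 18.7% of its 1097 protein-coding genes of that chromosome. A further 4 read-through names that join 2 genes were left out. Polyadenylated RNA had been sequenced from K562 cells of 2 genotypes, WT and ACK KO, in 3 replicates each that the labels call biological, 6 libraries in all. Cells grew in serum-containing medium, with no agent named, and libraries were made with a stranded kit. ACK is the non-receptor tyrosine kinase encoded by TNK2. The labels do not say how the knockout was made, or whether the replicates came from separate cultures or clones, so p-values cover the spread among these libraries alone, and a difference of genotype cannot be told apart from a difference between cell lines or clones. Values are the authors' normalised read counts. A log2 difference is the KO-labelled mean minus the WT mean of log2(value + 1), which understates the change of low genes.

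Most proteins of this family carry a row of C2H2 zinc fingers that read DNA and, at their start, a KRAB domain. The KRAB domain recruits the scaffold protein TRIM28 and with it the histone methyltransferase SETDB1 and heterochromatin proteins, which silence the bound sequence, often a retrotransposon. The genes arose by tandem duplication and lie in clusters, and the clusters are themselves covered by repressive chromatin in many cell types. Coding sequences translated from GENCODE 29 gave a median of 12 fingers per member, from 1 to 36, and a match to the KRAB domain in 169 of 205 members.

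The starts of 6 members are shown first. They include a pair of neighbours with opposite changes and 1 of 2 genes that overlap in GENCODE 29 and fell. The others are 2 genes of cluster 7 listed at 0 throughout 1 group, and the deepest fall of cluster 6. Each sequence is RefSeq's window of 250 bases before to 50 bases after the gene's start in GRCh38.p14, read 5′ to 3′ on the gene's own strand, with CG dinucleotides, the sites of DNA methylation, in capitals. ZNF613 (plus strand, chr19:51927222-51927521) and ZNF350 (minus strand, chr19:51986791-51987090) are neighbours that changed in opposite directions. ZNF569 (minus strand, chr19:37467395-37467694) overlaps ZNF570 head to head in GENCODE 29, and both fell to near 0. By the RefSeq starts behind these windows the 2 genes run away from each other without overlap. ZNF264 (plus strand, chr19:57191250-57191549) was gained, and ZNF256 (minus strand, chr19:57947657-57947956) and ZNF813 (plus strand, chr19:53467483-53467782) fell.
ZNF613: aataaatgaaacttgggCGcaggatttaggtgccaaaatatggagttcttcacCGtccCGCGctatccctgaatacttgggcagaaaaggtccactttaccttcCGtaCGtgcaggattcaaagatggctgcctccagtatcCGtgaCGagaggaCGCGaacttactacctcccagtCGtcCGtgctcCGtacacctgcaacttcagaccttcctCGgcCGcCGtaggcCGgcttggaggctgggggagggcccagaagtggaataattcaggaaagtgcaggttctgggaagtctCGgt
ZNF350: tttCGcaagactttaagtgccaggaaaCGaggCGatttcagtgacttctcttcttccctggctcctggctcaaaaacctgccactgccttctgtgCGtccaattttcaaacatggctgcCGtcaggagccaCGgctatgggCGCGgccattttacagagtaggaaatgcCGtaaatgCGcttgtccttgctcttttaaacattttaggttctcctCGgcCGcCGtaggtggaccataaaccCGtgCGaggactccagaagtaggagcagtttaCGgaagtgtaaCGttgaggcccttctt
ZNF569: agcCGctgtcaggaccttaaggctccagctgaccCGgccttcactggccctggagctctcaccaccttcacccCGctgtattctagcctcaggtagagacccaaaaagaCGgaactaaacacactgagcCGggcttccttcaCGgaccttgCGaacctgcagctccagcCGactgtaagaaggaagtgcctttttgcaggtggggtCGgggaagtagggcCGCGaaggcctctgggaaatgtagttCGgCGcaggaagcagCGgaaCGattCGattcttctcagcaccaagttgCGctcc
ZNF264: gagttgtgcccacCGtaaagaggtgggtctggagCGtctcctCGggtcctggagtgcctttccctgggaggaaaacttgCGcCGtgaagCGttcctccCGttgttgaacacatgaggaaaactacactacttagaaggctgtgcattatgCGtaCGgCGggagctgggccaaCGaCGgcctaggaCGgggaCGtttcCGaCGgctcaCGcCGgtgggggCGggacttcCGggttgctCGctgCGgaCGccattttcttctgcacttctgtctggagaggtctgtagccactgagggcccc
ZNF256: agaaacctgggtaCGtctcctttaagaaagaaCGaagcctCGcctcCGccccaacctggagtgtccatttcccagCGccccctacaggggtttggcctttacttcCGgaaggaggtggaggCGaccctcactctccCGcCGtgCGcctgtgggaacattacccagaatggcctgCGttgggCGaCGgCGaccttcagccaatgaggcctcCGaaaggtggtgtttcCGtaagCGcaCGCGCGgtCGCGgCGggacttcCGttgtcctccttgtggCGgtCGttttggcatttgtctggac
ZNF813: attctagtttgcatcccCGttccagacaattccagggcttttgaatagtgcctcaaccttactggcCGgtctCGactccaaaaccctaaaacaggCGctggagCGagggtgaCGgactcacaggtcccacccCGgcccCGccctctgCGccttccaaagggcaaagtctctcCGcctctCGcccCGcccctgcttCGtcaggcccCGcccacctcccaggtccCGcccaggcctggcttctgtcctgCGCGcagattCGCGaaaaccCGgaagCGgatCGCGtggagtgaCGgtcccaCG
The windows of ZNF613 and ZNF350 share the run tcctCGgcCGcCGtagg, 17 bases that begin 39 bases before the start in both. On either strand this run was found in these 2 windows alone among the 184 members with a window in the RefSeq table, and in no other of 10952 windows of protein-coding genes of the file. The pair was picked for its opposite changes, and runs shared by other neighbouring pairs are not given. The windows of ZNF569 and ZNF570 overlap by 173 bases on opposite strands.

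TNK2, the targeted gene, read 829.7, 613 and 642 in the WT libraries, in the order of their replicate numbers, as all values by library below, against 741, 506 and 598 in the KO-labelled ones. The ranges overlapped and the log2 difference was -0.18 (SE 0.21, 95% interval -0.68 to 0.32). By an exact permutation test, two-sided, p was 0.4, and no p under 0.1 can be had from 3 against 3 libraries. The amount of TNK2 RNA thus does not check the genotype labels, and the libraries are called KO-labelled. Values per library summed to between 43478033 and 53301879, and the read depth behind them is unknown. All 10 erythroid and K562 marker genes were at 10 or more in every library. The 3 lymphoid markers in the file summed to 109 to 127 (WT) and 69.6 to 93.1 (KO-labelled), and the 2 fibroblast markers to 8.21 to 34.5 (WT) and 84.7 to 208 (KO-labelled), where COL1A1 made up most of it. Of the epithelial markers EPCAM was near 4791 (WT mean) and 4923 (KO-labelled mean) and CDH1 near 0. The part of these other cell type markers in the results on zinc finger genes was not tested. Libraries of the same replicate number deviated from their group means together, with correlations over all tested genes of 0.699, 0.521 and 0.342 for replicates 1, 2 and 3, and the number was also used as a block. Replicates 2 and 3 were hardly told apart by this: WT 2 with KO-labelled 3 gave 0.281 and WT 3 with KO-labelled 2 gave 0.257. Over the 189 tested members these were 0.252 and 0.259, above the 0.179 of replicate 3 with its own number.

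As a family the members were expressed at low levels. Their median value over the 6 libraries was 322, against 1147 for all protein-coding genes, and per kb of exon the medians were 68 and 225. By mean value, 18 members lay under 10, 40 from 10 to 100, 103 from 100 to 1000 and 44 at 1000 or more. The highest level per kb of exon was that of ZNF146, a protein made of little else than zinc fingers, at 2297 normalised counts per kb. ZNF121, ZNF714, ZNF428, ZNF83 and ZNF581 followed at 815, 618, 593, 577 and 560.03. None of these 6 passed the test of KO-labelled against WT libraries, where the log2 differences were -0.15, -0.19, -0.22, 0.17, -0.37 and -0.20. With the replicate number as a block ZNF83 passed as lower (adjusted p 0.00848, limma). The values of all 205 members summed to 160928, 156358 and 147965 (WT) against 129870, 138616 and 135500 (KO-labelled), so the KO-labelled sums lay below all WT sums. As a share of all values of a library they were 0.345%, 0.293% and 0.294% in WT and 0.299%, 0.28% and 0.286% in the KO-labelled libraries, where the ranges overlapped. From normalised values, fewer cells that express a gene and less RNA per cell cannot be told apart.

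Most zinc finger genes did not pass the test, and those that did fell more often than they rose. Genes entered the test if at least 3 libraries read 10 or more, as 189 members did. Of these 5 rose, 19 fell and 165 did not pass an adjusted p of 0.05 (limma, Benjamini-Hochberg over 16658 genes). Over all tested genes 5.37% were called higher and 4.96% lower, 10.3% in all. Among the members the shares were 2.65% higher and 10.1% lower. The other 805 tested protein-coding genes of chromosome 19 had 22 calls in each direction, 2.73% each, and the 221 tested ZNF genes with a number on other chromosomes had 9 higher (4.07%) and 12 lower (5.43%). Without WT replicate 1 the members had 11 rises, where 7.68% of all tested genes rose, and without any other single library 3, where 2.06% to 3.33% did. Falls numbered 10, 7, 12 and 10 without WT replicate 2, WT replicate 3, KO-labelled replicate 2 and KO-labelled replicate 3, where 2.62%, 2.1%, 2.68% and 2.3% of all tested genes fell. Without replicate 1 of both groups 14 rose and 30 fell, where 14.6% and 13.8% of all tested genes did. Among the 9 other C2H2 genes of chromosome 19 that carry a ZFP, ZSCAN, ZIM, ZBTB or similar name, 8 were tested and none passed without the block, while 2 were lower with it.

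The median log2 difference of the members was -0.15, with quartiles of -0.43 and 0.16, and 119 of 189 members (63%) lay below 0. Over all tested genes the median was -0.02 and 51.6% lay below 0. Medians were -0.03 for the other protein-coding genes of chromosome 19 and 0.03 for the ZNF genes elsewhere. The KO-labelled libraries all lay below the WT libraries for 50 members (26.5%) and all above for 16 (8.47%), against 14.7% and 15.2% of all tested genes. In the 3 pairs of same-numbered libraries 80 members (42.3%) were lower each time and 35 (18.5%) higher, against 34.0% and 31.8%. By replicate number the median of the members was -0.29, -0.12 and -0.05 for replicates 1, 2 and 3, so the shift was deepest in the pair of replicate 1. Without replicate 1 of both groups it was -0.07 over the members. With the replicate number as a block 17 members were higher and 50 lower (limma), where all tested genes had 19.7% higher and 20% lower, and all 24 calls of the unblocked test were among them. Of the 16 members not tested, 15 had no value above 30. The remaining one, ZNF471, was at 59.4, 5.17 and 44.7 (WT) and 2.35, 0.759 and 0 (KO-labelled). ZNF93, a repressor of LINE-1 retrotransposons, was at 13.8, 4.53 and 6.06 (WT) and 26.2, 7.07 and 9.37 (KO-labelled). Among members not tested, the KO-labelled libraries all lay above WT for ZNF85, ZNF284, ZNF234 and ZNF548. They all lay below for ZNF471 and ZNF415. With no filter 7 members rose and 18 fell (limma).

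**Figure D1:**
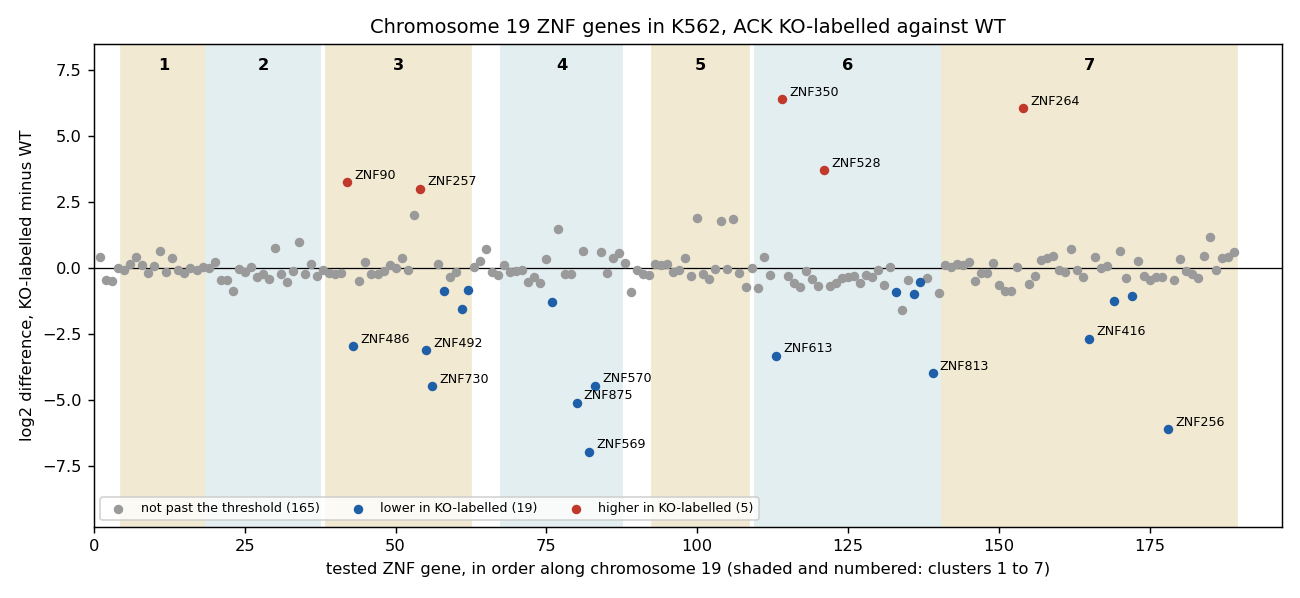
Log2 difference, KO-labelled minus WT, of the 189 tested ZNF genes in their order along chromosome 19, 1 point per gene, with the 7 clusters shaded and numbered. Red and blue points are the 5 rises and 19 falls (limma, adjusted p under 0.05). The largest changes lie beyond 5 in both directions, and 27 of the 31 points of cluster 6 lie below 0.

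The largest rises were gains of genes listed at 0 in WT. ZNF350, a KRAB repressor known to bind BRCA1, was listed at 0 throughout WT and read 82.7, 47.9 and 145 in the KO-labelled libraries. It lies on the minus strand from 51964343 to 51986856 in cluster 6. ZNF264, on the plus strand from 57191500 to 57222846 in cluster 7, was likewise listed at 0 in all WT libraries and reached 124, 23.9 and 94.8. For both genes every KO-labelled library lay above WT, with adjusted p-values of 5.99e-04 and 0.002303 (limma). No fold is given against a group at 0. The log2 difference of ZNF264 moved from 6.06 to 6.77 without KO-labelled replicate 2, its lowest library.

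The other 3 rises started from low WT values. ZNF528 had 37.6, 8.05 and 6.39 in WT and 322, 131 and 137 in the KO-labelled libraries, a rise of 13.2-fold (adjusted p 0.0202, limma). Replicate 1 was the highest of both groups for this gene, and the log2 difference of 3.72 became 4.46 without WT replicate 1. ZNF90 rose 9.56-fold from 9.51, 13.3 and 4.101 to 103, 80.9 and 77.5 (adjusted p 0.00623, limma), with groups far apart. ZNF257, from 2.46, 0 and 3.54 in WT to 34.7, 12.3 and 16.5, rose 8.097-fold with an adjusted p of 0.0424 (limma). The log2 difference of 3.02 became 2.35 when WT replicate 2 was left out and 1.85 with a pseudocount of 5, and with a pseudocount of 0.5 the adjusted p was 0.0581 (limma). ZNF90 kept its call in each fit without 1 library. ZNF257 lost it in all but the fit without WT replicate 1, with an adjusted p of up to 0.132 (limma), and ZNF528 likewise, with up to 0.0792 (limma).

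Loss to values near 0 was seen for 6 tested members. ZNF569 read 244, 115 and 160.02 (WT) against 1.43, 0 and 0 (KO-labelled; adjusted p 5.19e-04, limma). ZNF570, whose GENCODE 29 start lies within ZNF569 on the opposite strand, had 36.6, 16.9 and 23.8 and 0, 0.609 and 0 (adjusted p 0.002303, limma). The exons of these 2 genes overlap in that annotation, and whether the counting used strand is not stated. Reads of the overlap thus cannot be assigned to one or the other. ZNF875, formerly HKR1, lies from 37312837 to 37369365 and went from 66.9, 31.2 and 47.7 to 1.603, 0 and 0 (adjusted p 0.00232, limma). These 3 genes sit in cluster 4 within 176 kb. ZNF527, which lies between ZNF875 and ZNF569, did not pass, with 47.3, 43.4 and 23.01 (WT) and 59.1, 48.1 and 67.3 (KO-labelled; log2 difference 0.66, SE 0.37). In cluster 7, ZNF256 had 73.7, 66.1 and 63.4 in WT and was listed at 0 throughout the KO-labelled libraries (adjusted p 1.93e-04, limma), while ZNF416 went from 28.7, 41.6 and 39.3 to 6.48, 2.25 and 6.92 (adjusted p 0.0147, limma).

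ZNF613, the neighbour of ZNF350 in cluster 6, read 37.5, 24.9 and 26.8 (WT) against 4.37, 0 and 4.27 (KO-labelled; adjusted p 0.0326, limma). The gap between these genes is 15.6 kb, and their next neighbours ZNF649 and ZNF614 had log2 differences of -0.24 and -0.28 that did not pass. The log2 difference of ZNF613 came to -3.31, and -2.51 without KO-labelled replicate 2. Its call was lost without any one of the WT libraries or KO-labelled replicate 3 (adjusted p up to 0.113, limma) and with a pseudocount of 0.5 (0.0524). ZNF416 lost its call without WT replicate 2 (0.0647) or WT replicate 3 (0.07304). The calls of ZNF569, ZNF570, ZNF875 and ZNF256 held in each fit without 1 library. Like ZNF613 and ZNF416, they entered the test through the WT libraries alone. They thus had to differ, and these fits are no separate check of their fall. Sizes near 0 depend on the pseudocount: with 5 in place of 1 the log2 differences of ZNF569, ZNF256, ZNF875 and ZNF570 were -4.97, -3.86, -3.23 and -2.51, against -6.95, -6.10, -5.11 and -4.45.

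A KO-labelled mean of 20 or more with every WT library under 10 was met by 3 of 189 tested members (1.59%), ZNF350, ZNF264 and ZNF257. All tested genes met it in 1.04%. The reverse was met by 6 tested members (3.17%), against 0.924% of all tested genes and 3 of 805 other protein-coding genes of chromosome 19. All 9 passed the filter through 1 group alone and so had to differ, as did 2 more members. Among the 178 tested members that did not pass by 1 group alone, 2 rose (1.12%) and 13 fell (7.30%). Over all tested genes, with none left out, 5.37% rose and 4.96% fell. Their shares without the genes that passed by 1 group alone were not computed.

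**Figure D2:**
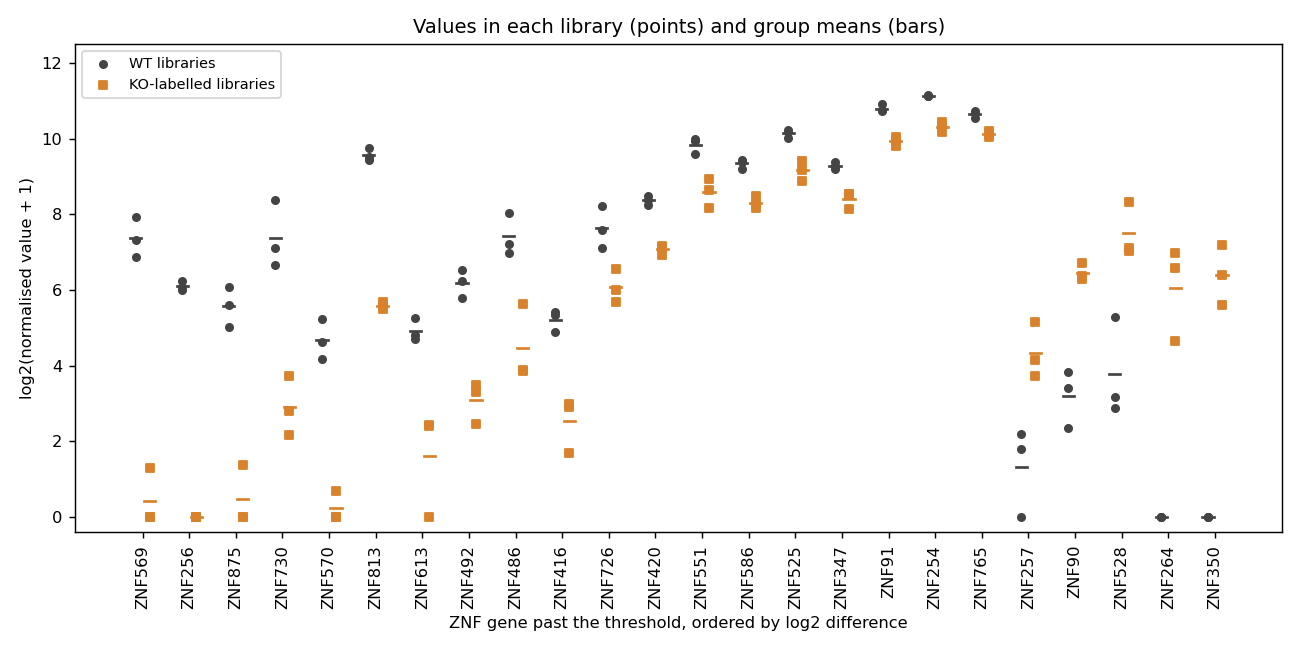
Log2(normalised value + 1) in each WT library (grey circles) and KO-labelled library (orange squares) for the 24 ZNF genes past the threshold, ordered by log2 difference, with short bars at the group means. The groups do not overlap for any of the 24 genes, and ZNF350 and ZNF264 sit at 0 in WT and ZNF256 at 0 in the KO-labelled libraries.

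Deep but incomplete falls came next. ZNF813, near the distal end of cluster 6, went from 693, 729.7 and 864 in WT to 47.7, 49.9 and 43.7 in the KO-labelled ones. The 3 libraries of each group lay close together, and the fall was 15.8-fold with a log2 difference of -3.98 (SE 0.20, adjusted p 1.15e-04, limma), held in each fit without 1 library. Of its transcript 31-mers 24.7% also occur in other genes, so reads may be split between copies. In cluster 3, ZNF730 fell 22.3-fold from 330.3, 136 and 101 to 12.3, 5.97 and 3.504 (adjusted p 0.00515, limma). ZNF492, the member before it across a gap of 408 kb, fell 8.603-fold from 91.9, 54.2 and 74.3 to 10.2, 4.47 and 8.92 (adjusted p 0.005496, limma). Of its 31-mers 44.2% were shared. ZNF486, next to ZNF90, fell 7.75-fold from 262, 126 and 148 to 48.4, 13.5 and 13.8, where replicate 1 was the highest of each group. Its adjusted p of 0.0206 (limma) rose to 0.0523, 0.0771, 0.0747 and 0.0893 in the fits that each left out WT 2, WT 3, KO-labelled 2 or KO-labelled 3, in that order.

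The remaining 9 falls were of 1.44-fold to 2.93-fold. ZNF91, which represses SVA retrotransposons, fell 1.81-fold from 1921, 1681 and 1726 to 1049, 895 and 998 (adjusted p 0.0103, limma). Also in cluster 3, ZNF254 fell 1.77-fold from 2245, 2225 and 2287 to 1149.9, 1374 and 1314 (adjusted p 0.00962, limma), and ZNF726, its neighbour, fell 2.93-fold. ZNF420, known as Apak and as a regulator of p53, fell 2.45-fold from 358, 299.6 and 331 to 141, 141 and 120.5 in cluster 4 (adjusted p 0.00923, limma). In cluster 7, ZNF551 fell 2.39-fold and ZNF586 2.06-fold. In cluster 6, ZNF525, ZNF347 and ZNF765 fell 1.97-fold, 1.84-fold and 1.44-fold. For each of the 9 genes all KO-labelled libraries lay below all WT libraries.

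None of these 9 calls held in all 6 fits without 1 library. Without WT replicate 3 or KO-labelled replicate 3, ZNF91, ZNF254 and ZNF420 had adjusted p-values of 0.0541 to 0.0603 (limma). ZNF551 and ZNF586 lost their calls without WT replicate 2, WT replicate 3 or KO-labelled replicate 2, with adjusted p-values of up to 0.105 and 0.0738 (limma). ZNF347 and ZNF525 lost theirs without replicate 2 or 3 of either group, with up to 0.118 and 0.0856 (limma), and ZNF726 and ZNF765 in each of the 6 fits without 1 library, with up to 0.162 and 0.165 (limma). In total 10 of the 24 calls held in each fit without 1 library, and all 24 held with the replicate block. Of these 10, ZNF350, ZNF264, ZNF569, ZNF570, ZNF875 and ZNF256 had entered the test through 1 group alone. Those genes had to differ, so holding in these fits is no separate check of them. ZNF90, ZNF492, ZNF730 and ZNF813 entered through both groups.

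By position, the members fell into 7 clusters of 5 or more genes whose starts lie within 1 Mb of the next, with 188 members, and 17 members outside them. Cluster 1 runs from 7.07 to 9.79 Mb, cluster 2 from 11.5 to 12.6 Mb, cluster 3 from 19.7 to 24.1 Mb on the short arm next to the centromere, cluster 4 from 36.2 to 37.8 Mb, cluster 5 from 43.5 to 45.1 Mb, cluster 6 from 51.6 to 53.6 Mb and cluster 7 from 55.5 to 58.5 Mb. All 24 calls were in clusters 3, 4, 6 and 7. None of the 14, 19 and 16 tested members of clusters 1, 2 and 5 passed the unblocked test of all 6 libraries (limma). Nor did any of the 16 tested outside clusters, and differences between clusters were not tested. In cluster 5, 1 member rose with no filter and 1 without the intensity trend. Without WT replicate 1, 2 of its members rose, where 7.68% of all tested genes did. Without replicate 1 of both groups 2 rose there and 1 in cluster 1, where 14.6% of all tested genes did. With the block 2, 1 and 2 members of clusters 1, 2 and 5 were higher and 0, 4 and 1 lower, where 19.7% and 20% of all tested genes were.

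Most members of cluster 6 read lower in the KO-labelled libraries. It begins at 51571298 with ZNF175 and ends at 53580269 with ZNF331, and 31 of its 34 members were tested. The median log2 difference was -0.45, and 27 of 31 lay below 0. By replicate number the median was -0.51, -0.43 and -0.35, and 23 of the 31 had a lower KO-labelled value in all 3 same-numbered pairs, against 34.0% of all tested genes. Every KO-labelled library lay below every WT library for 17 of the 31, against 14.7% of all tested genes. Some of these genes share sequence, so the 31 values may not all be separate measurements. Of the 31-mers of ZNF320, ZNF468, ZNF808 and ZNF28, 79.2%, 63.2%, 35.6% and 22.3% also occur in other genes. For ZNF175 and ZNF480 these shares were 2.44% and 4.11%. Without the block 2 members rose and 5 fell (limma), against 5.37% and 4.96% of all tested genes. With the block 2 were higher and 20 lower (limma), against 19.7% and 20%. Without replicate 1 of both groups the median was -0.42 and the counts were 2 higher and 13 lower, where 13.8% of all tested genes were lower. Over the 6 fits that left out 1 library the median of the cluster ran from -0.53 to -0.44, while the count of falls without the block was 1 when WT replicate 2, WT replicate 3 or KO-labelled replicate 3 was left out, 2 when it was KO-labelled replicate 2, and 5 or 6 when it was replicate 1 of either group.

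With the block alone 15 members of cluster 6 were called lower, with log2 differences from -1.59 to -0.25 and a median of -0.55. The smallest were those of ZNF468 (-0.25), ZNF600 (-0.29) and ZNF611 (-0.32). ZNF175, at its proximal end, had 4839.8, 3040.03 and 3279 (WT) and 2362, 2127 and 2047 (KO-labelled), a log2 difference of -0.74 with adjusted p-values of 0.0613 without and 0.00175 with the block (limma). ZNF480 had 1488, 2043 and 2242 and 945, 1323 and 1381, with a log2 difference of -0.66 and a blocked adjusted p of 7.76e-04 (limma). ZNF28 had 1822, 2407 and 2173 and 1347, 1492 and 1521, with a log2 difference of -0.55 and a blocked adjusted p of 0.00245 (limma). In each of these genes the groups did not overlap. ZNF808, which is needed for development of the pancreas, had 1022, 802 and 675 and 533, 471 and 559, a log2 difference of -0.66 and a blocked adjusted p of 0.0111 (limma). Differences near 0 were those of ZNF160, at 1169, 1139 and 1269.7 (WT) and 1113, 1268 and 1334 (KO-labelled), and of ZNF888 and ZNF616, whose log2 differences were -0.08 and -0.11, all 3 picked with their values in view.

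Few other protein-coding genes lie within cluster 6, and 3 were tested. PPP2R1A, which encodes the scaffold subunit of protein phosphatase 2A, had a log2 difference of -0.24 (limma adjusted p 0.286 without and 0.02302 with the block). SPACA6 had one of 0.83 in the other direction (limma adjusted p 0.135 without and 0.00687 with the block). The third is a read-through name that includes ZNF816. The 16 tested protein-coding genes in the 1 Mb before the cluster had a median of 0.07 and the 13 in the 1 Mb after it one of 0.18. Whether cluster 6 differs from the other clusters was not tested.

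**Figure D3:**
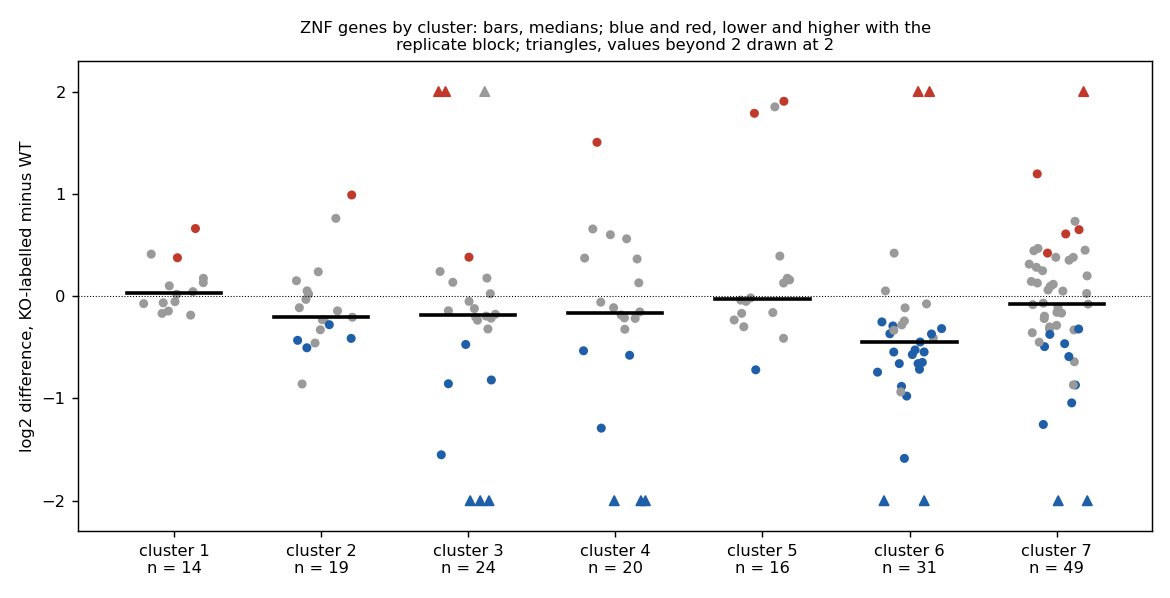
Log2 difference, KO-labelled minus WT, of the tested ZNF genes of each cluster, 1 point per gene, with black bars at the medians. Blue and red mark genes lower and higher with the replicate block (limma, adjusted p under 0.05), and triangles at 2 and -2 stand for larger values. The bar of cluster 6 lies at -0.45 and those of the other clusters between -0.21 and 0.03.

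The other clusters had medians of 0.03 (cluster 1), -0.21 (cluster 2), -0.19 (cluster 3), -0.17 (cluster 4), -0.03 (cluster 5) and -0.08 (cluster 7). In cluster 3 the 24 tested members held 2 rises and 6 falls, and its median was -0.46, -0.04 and -0.04 by replicate number and 0.02 without WT replicate 1, so its median lay near 0 apart from replicate 1. Cluster 4 had 4 falls among 20 members and a median that was -0.33, -0.22 and 0.08 by replicate number. In cluster 7, the largest with 49 tested members, 1 rose and 4 fell, and the median was -0.11, -0.14 and 0.04. Other protein-coding genes between the first and last member had medians of 0.16 in cluster 1 (35 tested genes), 0.31 in cluster 2 (6), -0.11 in cluster 4 (2), -0.04 in cluster 5 (19) and -0.0028 in cluster 7 (15), and cluster 3 held none that was tested.

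**Figure D4:**
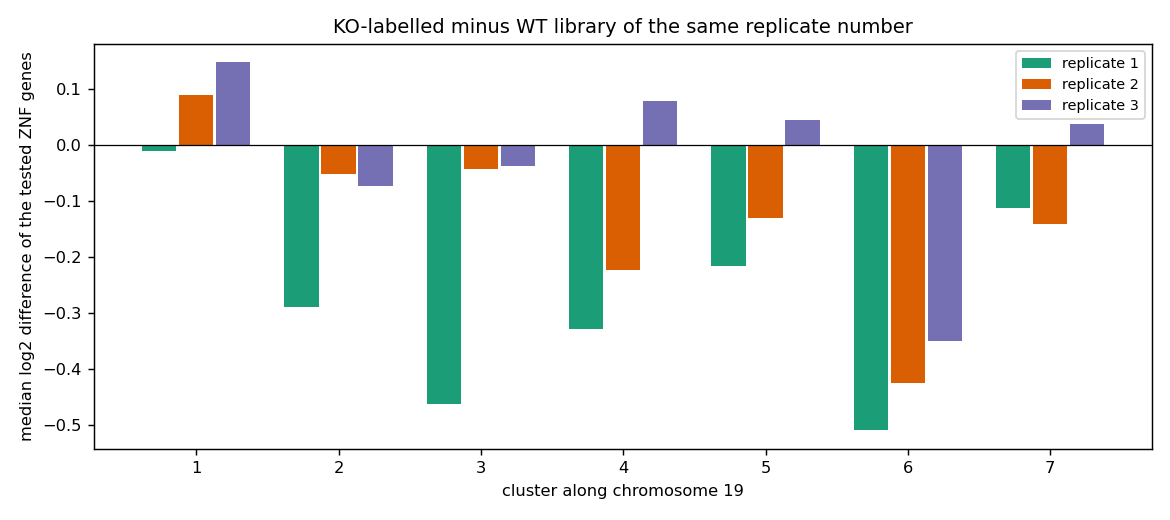
Median log2 difference of the tested ZNF genes of each cluster for the KO-labelled minus the WT library of the same replicate number, 1 bar per number. Cluster 6 lies below 0 in all 3 pairs, at -0.51, -0.43 and -0.35, as do cluster 2, at -0.29, -0.05 and -0.07, and cluster 3, at -0.46, -0.04 and -0.04, while clusters 1, 4, 5 and 7 change sign between pairs.

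Neighbouring members were compared next, where 13.9% of the 173 tested members in clusters had a call. Among 166 pairs of adjacent tested members of the same cluster, 126 had no call, 33 had 1 called gene beside 1 that did not pass, 4 had the same call and 3 had opposite calls. The opposite pairs were ZNF90 with ZNF486, ZNF257 with ZNF492, and ZNF613 with ZNF350. ZNF257 and ZNF492 lie 543 kb apart, with the untested ZNF676 between them. Of the 31-mers of ZNF90 and ZNF486, 20.1% and 20.4% also occur in other genes. The Pearson correlation of the log2 differences of adjacent members was -0.0034 and the Spearman correlation 0.09 over these 166 pairs, which share libraries and, in part, sequence, and are given as a description. The median absolute difference between adjacent members was 0.46, against 0.57 over 12389 pairs from different clusters. ZNF569 and ZNF570 were the one pair with the same call whose starts lie within 2 kb of each other. Starts as close had no call without the block in ZNF529 with ZNF382, ZNF585B with ZNF383, ZNF432 with ZNF841 and ZNF580 with ZNF581. With the block ZNF432 and ZNF841 alone among these pairs were both lower.

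Features of the encoded proteins are given as descriptions, with no test between the classes. The 155 tested members with a KRAB match had a median log2 difference of -0.18, with 5 rises and 18 falls, and with the block 15 higher and 46 lower. The 34 without a match had a median of 0.02, with 0 rises and 1 fall, and with the block 2 higher and 4 lower. In cluster 6, 33 of its 34 members have a KRAB match, so the 2 classes also differ in position. Over all tested genes 5.37% rose and 4.96% fell, and with the block 19.7% and 20% did. By number of fingers, the 35 tested members with up to 8 had a median of 0.02, the 62 with 9 to 12 one of -0.17 and the 92 with 13 or more one of -0.19. The Spearman correlation of finger number with the log2 difference over 189 members was -0.11. Members with a mean over the 6 libraries of 500 or more had a median of -0.17 (77 genes), against -0.05 for all 9281 tested genes at that level.

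At the starts, the 184 members with a RefSeq window had a median of 20.5 CG dinucleotides in 300 bases, against 26 for the 10952 protein-coding genes of the file with a window. The 5 members that rose had 9 to 27 and the 19 that fell 10 to 30, and the 148 that did not pass had a median of 21. The ETS core CCGGAA, searched on both strands, occurred in 108 of 184 member windows (58.7%) and in 28.8% of protein-coding windows. It was found in 3 of 5 members that rose, 14 of 19 that fell and 20 of 27 in cluster 6, and of the sequences printed above it lies in those of ZNF264, ZNF256 and ZNF813. The STAT5 palindrome TTCNNNGAA, on both strands, occurred in 30 of 184 member windows (16.3%), in 6.36% of protein-coding windows, in 3 of the 19 that fell and in none of the 5 that rose. Of the printed windows that of ZNF613 holds it. The GATA motif AGATAA was found in 8 of 184 member windows (4.35%) and 5.46% of protein-coding windows. CCGGAA can lie wholly or partly within TTCNNNGAA, and matches of the 2 shared bases in 1 member window. A match is a description of letters and not of binding.

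Genes through which KRAB zinc finger proteins act were counted from a list. Of 30 genes of the TRIM28 complex, the HUSH complex and heterochromatin, 1 rose, 1 fell and 28 did not pass, with a median log2 difference of -0.12. That is 3.33% each way, under the 5.37% and 4.96% of all tested genes. With the block 4 were higher (13.3%) and 8 lower (26.7%), where all tested genes had 19.7% and 20%. TRIM28 had 15541, 24283 and 21747 (WT) and 14389.9, 22765 and 19406 (KO-labelled), a log2 difference of -0.12 (SE 0.23, 95% interval -0.68 to 0.43), and SETDB1 one of -0.11 (SE 0.16). MORC3, an ATPase of nuclear bodies, fell 1.55-fold from 5729, 4719.6 and 4871 to 3120.2, 3311 and 3416 (adjusted p 0.0233, limma), and TRIM24, a relative of TRIM28, rose 1.39-fold from 6208, 6183 and 6117 to 7836, 8536 and 9333 (adjusted p 0.0482, limma). TRIM24 lost its call in each fit without 1 library, with an adjusted p of up to 0.204, and MORC3 in all but that without WT replicate 1, with up to 0.0931 (limma). The histone methyltransferase gene SUV39H1 and SUMO2, a modifier of TRIM28, had log2 differences of -0.56 and -0.38 and passed with the block alone (adjusted p 0.00148 and 0.00227, limma). SUV39H1 also passed without WT replicate 1 (0.0457).

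Of further members with a known role, ZNF274, which binds the ends of other zinc finger genes and brings SETDB1 to them, had 2116, 1495 and 1478 (WT) and 1741, 1303 and 1643 (KO-labelled), with overlapping ranges and a log2 difference of -0.11 (SE 0.20, adjusted p 0.804, limma). ZNF304, a repressor of tumour suppressor genes, had 162, 179 and 169 and 235, 179 and 258 and did not pass (log2 difference 0.38). ZNF382 and ZNF331 varied widely between replicates and did not pass. ZNF382 had 50.3, 8.19 and 1.46 (WT) and 10.8, 2.88 and 11.9 (KO-labelled), and ZNF331 91.2, 20.2 and 17.7 and 69.6, 11.6 and 4.86, with WT replicate 1 the highest library of both genes. In all, 118 of 205 members share exon sequence positions with another annotated gene on one strand or the other, and the median share of 31-mers found in other genes was 9.6%, with 44 members at 20% or more, so that values of close copies are uncertain.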

How the data were processed

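Poly(A) RNA of 6 K562 libraries, 3 WT and 3 ACK KO, is described by the signal the authors deposited, normalised counts per gene; the name and the decimal values of the table are the evidence for that unit. Among the tools in the submitters' processing notes are STAR 2.7.2b for GRCh38, Salmon 1.1.0 and DESeq2 1.26.0, with no role given. The sources used here do not give how reads were counted or whether strand was used. Read depth is unknown, so precision is the spread between libraries.

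Symbols came from a name table (19392 of 19498 identifiers) and positions and biotypes from GENCODE 29 (19112). On the log2(value + 1) scale, limma 3.58.1 (R 4.3.3, with trend, Benjamini-Hochberg, threshold 0.05) compared the groups over 16658 genes with 10 or more in at least 3 libraries. Same-numbered WT and KO-labelled libraries deviated together (correlations over genes of 0.699, 0.521 and 0.342, each over the limit of 0.1). Blocked values therefore stand beside results they change. WT 2 with KO-labelled 3 (0.281) and WT 3 with KO-labelled 2 (0.257) also passed this limit. It thus cannot show that numbers 2 and 3 mark pairs. What a number marks is not in the labels. The unblocked test was run on simulated data with no effect of the replicate number, unlike these data, and the blocked test was not checked. Fingers (C, 2 residues, C, 12 residues, H, 3 to 5 residues, H) and KRAB matches (letter patterns at the 2 ends of its first part) were found in the longest GENCODE coding sequence, translated, in place of the RefSeq proteins first planned. Alternatives were other pseudocounts, filters, scalings, no trend, the block, each library left out and, added after seeing the data, both replicate 1 libraries left out. Members and lists were chosen with earlier results of these data known. Named members are up to 12 rises and 12 falls with a mean of 20 or more and no overlap, the 6 highest per kb, those at 0 in 1 group and a list of 12 with known roles, of which ZNF568 was not among the members. The other calls, and genes named as examples, were chosen after their values were seen.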

Additional observations from a re-analysis of the deposited data

How the results depend on the processing

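Under the alternatives the direction of each of the 24 calls stayed the same. The count of all genes past the threshold was 1721, 6612 with the replicate block, 726 to 2183 without 1 library and 4731 without replicate 1 of both groups. Members higher in KO-labelled libraries numbered 5, and 2 with a filter of 50, 9 without the intensity trend, 17 with the replicate block, 3 to 11 without 1 library and 14 without replicate 1 of both groups. Members lower numbered 19, and 50 with the replicate block, 7 to 20 without 1 library and 30 without replicate 1 of both groups. The median log2 difference of the members was -0.15, and -0.21 with median centring, -0.17 to -0.086 without 1 library and -0.071 without replicate 1 of both groups. That of cluster 1 ran from -0.035 to 0.21 without 1 library, that of cluster 2 was -0.070 without replicate 1 of both groups, and that of cluster 3 ran from -0.29 to 0.017 without 1 library. A gap of 0.5 Mb gave 8 clusters and moved no median beyond the spread between libraries. Of the genes named in the text, those that did not pass and changed sign without 1 library included ZNF714 (-0.33 to 0.016), ZNF83 (-0.75 to 0.076), ZNF581 (-0.40 to 0.099), ZNF274 (-0.20 to 0.061), ZNF382 (-1.37 to 0.82), ZNF121 (-0.46 to 0.12), ZNF146 (-0.32 to 0.037), ZNF649 (-0.39 to 0.039), TRIM28 (-0.31 to 0.059) and SETDB1 (-0.26 to 0.019). Without replicate 1 of both groups ZNF428 was at -0.049, ZNF581 at 0.072, ZNF382 at 0.57 and SETDB1 at 0.012. The causes were not tested. Low members such as ZNF257 and ZNF613 are limited by values near 0, where the pseudocount sets the size.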
